A study of Homo sapiens with 9 samples.

Results

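Genes of the NKX-, PAX-, SIX-, LHX-, DLX- and IRX-families encode homeodomain and paired-domain transcription factors that lay out organs and body axes in the embryo. Members were taken by symbol alone: every entry of the deposited count table named as a numbered gene of 1 of these 6 families. This gave 49 genes (14 NKX, 9 PAX, 6 SIX-family, 8 LHX, 6 DLX and 6 IRX) among 56307 entries with an identifier, and each symbol stood on 1 entry. Of the 49, 33 passed the expression filter and were tested, and 16 did not.

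All 9 libraries came from wild-type HNES1 cells, a human naive pluripotent stem cell line derived from an embryo, harvested on day 5 after the naive medium (PXGL) was withdrawn. The groups, of 3 libraries each, differed in the compound. The UNC group received UNC1999 at 1 µM, which inhibits the catalytic subunits EZH1 and EZH2 of Polycomb repressive complex 2 (PRC2). The PROTAC group received UNC6852 at 2.5 µM, a degrader of the PRC2 subunit EED, and the DMSO group received an equal volume of the solvent. Each agent was added 24 h before withdrawal and renewed daily, while all groups were in N2B27 medium with the tankyrase inhibitor XAV939 from day 0. The study used a single cell line, cells had been kept on mouse feeders before seeding on Geltrex, and the 2 compounds were given at different concentrations. The experiment was carried out independently 3 times, but the labels do not say that libraries sharing a replicate number came from the same run.

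In pluripotent cells, PRC2 places the histone mark H3K27me3 over the CG-rich starts of many developmental regulators, and genes of these families are among its best known targets. The mark is associated with low transcription, so such genes are often taken as a readout when PRC2 is removed or inhibited. NKX, LHX, DLX and IRX proteins bind DNA through a homeodomain, PAX proteins through a paired domain, and SIX-family proteins through a SIX-type domain joined to a homeodomain.

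The stretches upstream of 4 members that passed a test at 1 CPM or more are shown because CG-rich starts are where PRC2 is known to bind. NKX2-5 also passed a test at that level, but no RefSeq stretch was found for it. The stretches shown are from RefSeq (GRCh38.p14), 5′ to 3′ on the gene's strand, without bases that lie inside the gene in the count table or in GENCODE 29. Capitals mark CG pairs, except the last C of IRX4, whose G was cut off with the bases inside the gene. The stretch of SIX4 is chr14:60724352-60724601 (minus strand), that of NKX6-1 is chr4:84499293-84499542 (minus strand), that of IRX4 is chr5:1887237-1887429 (minus strand) and that of NKX1-2 is chr10:124450185-124450285 (minus strand).
SIX4: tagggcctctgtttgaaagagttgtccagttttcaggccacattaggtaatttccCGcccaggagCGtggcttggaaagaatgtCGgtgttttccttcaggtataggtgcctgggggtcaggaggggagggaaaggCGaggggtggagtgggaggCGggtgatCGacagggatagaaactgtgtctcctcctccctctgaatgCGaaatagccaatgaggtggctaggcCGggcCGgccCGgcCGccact
NKX6-1: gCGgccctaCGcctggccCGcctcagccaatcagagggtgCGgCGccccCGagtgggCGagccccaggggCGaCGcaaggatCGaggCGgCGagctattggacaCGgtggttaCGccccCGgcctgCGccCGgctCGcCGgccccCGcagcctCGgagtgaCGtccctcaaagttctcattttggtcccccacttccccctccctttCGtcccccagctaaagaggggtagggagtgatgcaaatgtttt
IRX4: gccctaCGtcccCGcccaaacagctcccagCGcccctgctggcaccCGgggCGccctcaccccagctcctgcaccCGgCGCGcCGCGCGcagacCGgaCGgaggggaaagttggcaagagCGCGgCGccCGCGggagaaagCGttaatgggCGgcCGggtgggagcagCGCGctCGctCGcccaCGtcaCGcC
NKX1-2: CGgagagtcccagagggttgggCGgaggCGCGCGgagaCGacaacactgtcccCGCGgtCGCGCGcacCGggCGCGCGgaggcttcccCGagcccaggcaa

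These stretches held 11 CG pairs in 250 bases at SIX4, 23 in 250 at NKX6-1, 27 in 193 at IRX4 and 16 in 101 at NKX1-2. SIX4 and NKX6-1 were higher under UNC and IRX4 and NKX1-2 lower. A RefSeq window of 300 bases (250 before to 50 after a start) was found for 32 of the 49 members. The median was 23.5 CG pairs per window (range 2 to 48) in the members and 20 (quartiles 6 and 31) over 19167 genes. Over the whole window IRX4 had 44, NKX1-2 41, NKX6-1 24, and PAX2 and SIX4 14 each. The GC box GGGCGG, read on both strands, was in 18 of the 32 windows (56.25%) and in 54.3% of all windows. The motif CCAAT, on both strands, was in 18 (56.25%) against 36.2% of all windows, and TATAAA, on both strands, in 2 (6.25%) against 10.2%. These matches are a description of letters in a window and not of bound sites.

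**Figure D1:**
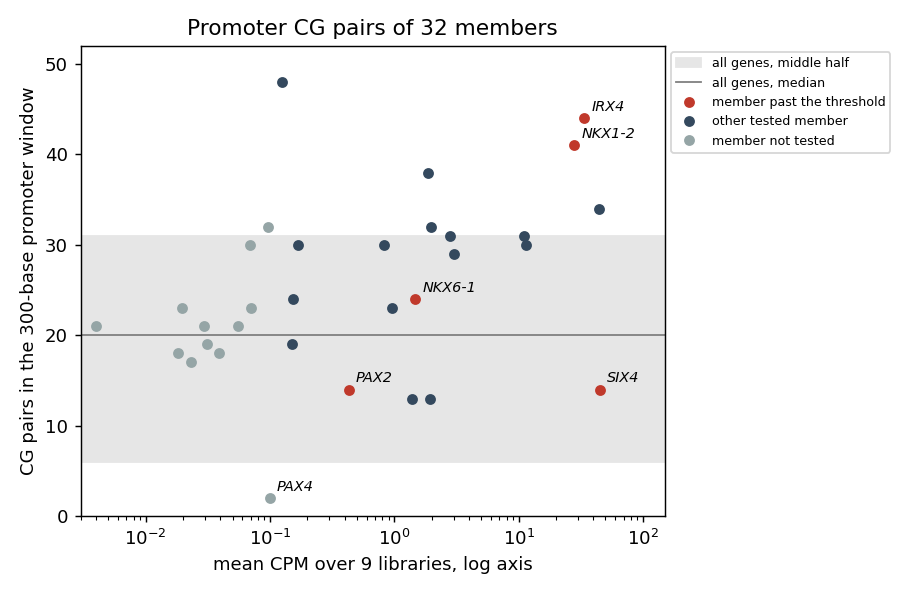
CG pairs in the 300-base RefSeq promoter window (y axis) against mean CPM over the 9 libraries (x axis, log scale) for the 32 members with a window; red points passed a test in at least 1 fit, blue points were tested only and grey points were not tested, and the grey band spans the quartiles of all 19167 windows. The red points range from 14 (PAX2, SIX4) to 44 (IRX4).

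Library totals ran from 31648689 counts (PROTAC 3) to 101073148 (UNC 1), and the members together took 0.0205% to 0.0238% of them. In a principal component analysis, replicate number 1 stood apart in all 3 groups on component 1 (26.6% of variance), and PROTAC 3 had the highest score on component 2 (18.5%). Markers of pluripotency (POU5F1, NANOG, SOX2, LIN28A, DPPA4) summed to 4027 to 4456 CPM in UNC, 4025 to 4204 in PROTAC and 3750 to 4057 in DMSO, with naive markers at 589 to 725, 666 to 704 and 652 to 695 CPM and primed markers at 336 to 411, 361 to 459 and 363 to 425 CPM in the same groups. The primed marker ZIC2 was lower in UNC (edgeR adjusted p = 0.0197). In the paired fit against DMSO, 2 of 5 pluripotency and 1 of 5 naive markers were higher in UNC, and 1 of 5 primed markers was lower. For PROTAC that fit had 1 of 5 pluripotency and 2 of 5 naive markers higher, and 1 of 5 primed markers lower. The compounds act on PRC2 proteins, so transcripts of its subunits do not check their action. Of EED, EZH1, EZH2 and SUZ12, only EZH2 passed a test, higher in UNC than in DMSO in the paired fit (log2 fold change 0.24, edgeR adjusted p = 0.00743).

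Most members were barely transcribed at day 5. Levels are given as CPM (TMM-scaled counts-per-million). Averaged over all 9 libraries, 17 of the 49 members were at or over 1 CPM, and 28 were under 1 CPM in every library. The 4 most counted, SIX4, IRX2, IRX4 and NKX1-2, held 67.1% of all member counts, and the 10 most counted held 90.5%. By family, IRX genes held 36.2% of member counts, SIX-family genes 28.5%, NKX 19.9%, LHX 7.23%, PAX 6.65% and DLX 1.59%. Of the 16 members not tested, 12 had fewer than 10 counts in every library. Among them NKX2-1, a regulator of lung, thyroid and ventral forebrain, had 3 counts in all, and NKX2-6 had 1. NKX2-1 lies opposite an unnamed entry with 2324 to 7059 counts per library, so its level is uncertain.

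Compared per kilobase of exon, IRX2 and IRX4 led. IRX2 averaged 13.3 ± 2.15 CPM per kb in UNC, 13.5 ± 1.63 in PROTAC and 12.8 ± 1.62 in DMSO (SD, n = 3 each). IRX4 averaged 9.5 ± 1.25 CPM per kb in UNC, 12.0 ± 1.87 in PROTAC and 14.6 ± 1.42 in DMSO (SD, n = 3 each). NKX1-2 followed with 6.87 ± 0.605, 8.42 ± 1.03 and 9.58 ± 1.21 CPM per kb in the same groups, and SIX4 with 7.93 ± 1.09, 6.82 ± 0.817 and 5.44 ± 0.699. In DMSO the libraries of IRX4 and IRX2 overlapped, while SIX4 lay below NKX1-2 without overlap. In UNC the mean of SIX4 was above that of NKX1-2, and their libraries overlapped. SIX5 came next at 4.22 CPM per kb over all 9 libraries, then NKX2-5 at 3.17 and LHX6 at 1.93.

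**Figure D2:**
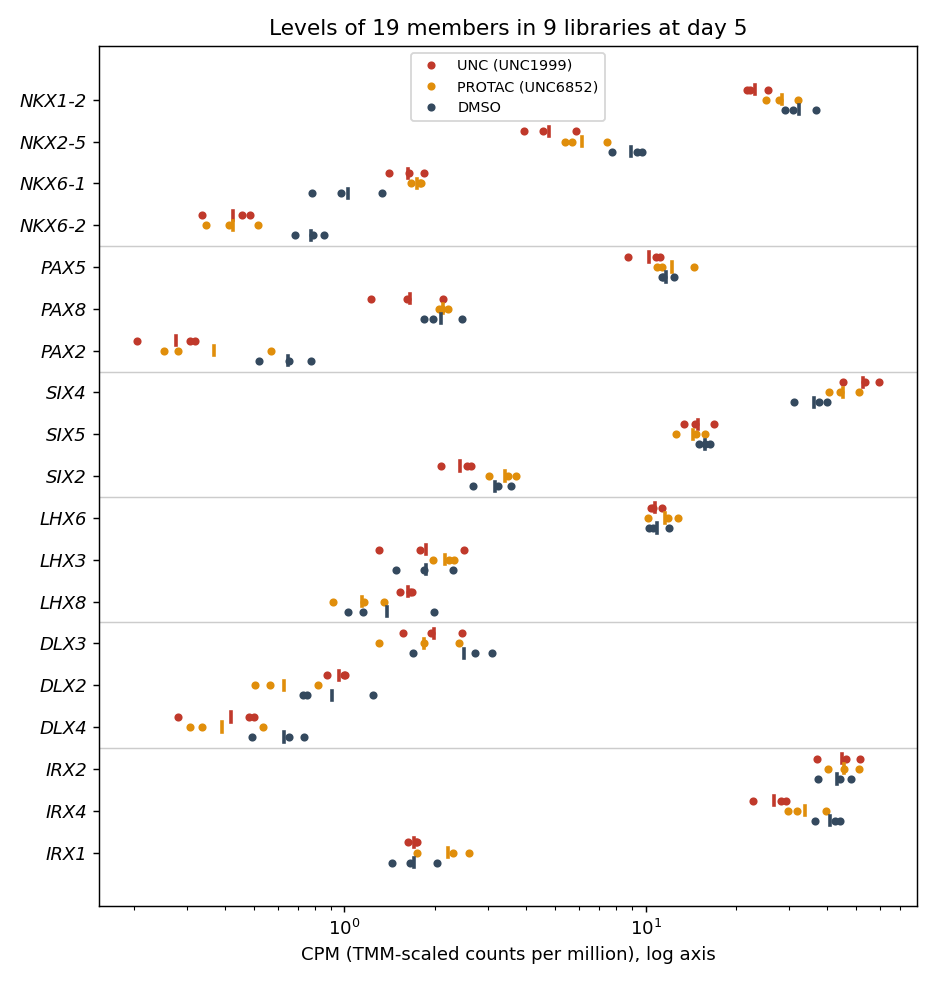
CPM in each of 9 libraries (log axis) for 19 members in 6 families, with UNC above PROTAC above DMSO and a vertical bar at each group mean of 3 libraries. SIX4 in UNC (45.3 to 59.8 CPM) lies above DMSO (31.1 to 40.0 CPM), and IRX4 and NKX2-5 in UNC lie below DMSO.

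Between UNC and DMSO, which asks what inhibiting EZH1 and EZH2 did, 2 members fell in the fit by group alone: IRX4 and NKX2-5. Among all 24182 genes tested, 0.72% were called, 0.318% higher and 0.401% lower. No member rose in that fit by edgeR (2 were higher at an unadjusted p under 0.05, and DESeq2 called 1, SIX4). With the replicate number as a block, the paired fit, SIX4 and NKX6-1 rose and IRX4, NKX1-2, NKX2-5, NKX6-2 and PAX2 fell, while 26 members did not pass. That fit called 7.05% of all genes higher and 6.46% lower. The 2 of 33 higher lie near that background, and the 5 of 33 lower are a larger share than it. In 11 tested members every UNC library was below every DMSO library (9.07% of all genes tested), and in 2 every UNC library was above (8.34%). The 11 include NKX1-1 and PAX6, which passed the expression filter through their DMSO libraries. For them, and for NKX2-4 among the members with a negative fold change, a lower UNC value was partly built into the selection. The median log2 fold change of the 33 tested members was -0.32, against -0.01 over all genes, with 24 members negative. The median was -0.07 in the 17 members at or over 1 CPM on average (0.01 over all genes at that level). In the 16 tested members under 1 CPM it was -0.77 (-0.10 over all genes at that level). These are bulk libraries, in which fewer cells of a type and less RNA per cell cannot be told apart.

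SIX4, a regulator of muscle and sensory placode genes, was the most counted member to rise. Its CPM was 45.3, 59.8 and 53.4 in UNC 1 to 3, and 31.1, 40.0 and 37.7 in DMSO 1 to 3. The groups did not overlap, and UNC was higher in 3 of 3 pairs of the same number. The log2 fold change was 0.54 ± 0.123 (SE) by group alone (edgeR adjusted p = 0.0673) and 0.54 ± 0.0566 in the paired fit (edgeR adjusted p = 7.97e-09). SIX5, a family member at the myotonic dystrophy locus, had 13.4, 14.6 and 16.9 CPM in UNC and 15.0, 15.8 and 16.4 in DMSO, which overlap. SIX2, which keeps nephron progenitors undifferentiated in the mouse, had 2.63, 2.55 and 2.08 CPM in UNC and 2.67, 3.56 and 3.23 in DMSO. Its groups did not overlap, yet it missed the threshold (paired log2 fold change -0.38, edgeR adjusted p = 0.0874). Summed SIX-family transcripts were 71.2 ± 8.06 CPM in UNC and 56.0 ± 5.68 CPM in DMSO (SD, n = 3 each). Most of these sums was SIX4, with means of 52.8 and 36.3 CPM. Of the 4 tested SIX-family genes, 2 had a negative and 2 a positive log2 fold change by group alone.

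IRX4, a regulator of ventricular heart muscle, moved the other way. Its CPM was 28.3, 29.2 and 22.7 in UNC and 44.1, 42.5 and 36.5 in DMSO, so that every UNC library was below every DMSO library. It fell by 0.62 on the log2 scale (SE 0.124, edgeR adjusted p = 0.0422; paired 1.22e-08). IRX2, in the same gene cluster on chromosome 5 and of similar level, had 37.1, 51.4 and 46.2 CPM in UNC against 37.3, 44.1 and 48.1 in DMSO, with a log2 fold change of 0.06 (SE 0.130). IRX1, the third gene of that cluster, had 1.72, 1.63 and 1.74 CPM in UNC and 2.03, 1.44 and 1.65 in DMSO. Both overlapped between groups, and neither passed a test (edgeR adjusted p = 0.920 and 0.998). IRX3, IRX5 and IRX6, the cluster on chromosome 16, were under 1 CPM on average and were not called.

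Among NKX genes, 3 fell and 1 rose in the paired fit. NKX2-5, a regulator of the heart field, had 3.94, 5.89 and 4.56 CPM in UNC and 7.75, 9.74 and 9.40 in DMSO. The groups did not overlap, and it fell by 0.92 on the log2 scale (SE 0.174, edgeR adjusted p = 0.0372; paired 4.08e-08). NKX1-2, known from the caudal epiblast and its neuromesodermal progenitors in the mouse, had 21.7, 22.2 and 25.4 CPM in UNC and 29.1, 30.8 and 36.8 in DMSO. It fell by 0.48 on the log2 scale in the paired fit (SE 0.0646, edgeR adjusted p = 1.21e-06), and by group alone it did not pass with edgeR (adjusted p = 0.0757) and passed with DESeq2 (adjusted p = 0.00959).

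The close relatives NKX6-1 and NKX6-2 went in opposite directions. NKX6-1, which specifies pancreatic beta cells and ventral neurons, had 1.64, 1.84 and 1.41 CPM in UNC and 0.971, 1.33 and 0.778 in DMSO, without overlap. Its log2 fold change was 0.65 ± 0.196 (SE) in the paired fit (edgeR adjusted p = 0.0211) and it was not called by group alone (edgeR adjusted p = 0.248). NKX6-2, a regulator of ventral neural progenitors and oligodendrocytes, had 0.337, 0.484 and 0.458 CPM in UNC and 0.789, 0.856 and 0.683 in DMSO. It fell by 0.88 on the log2 scale in the paired fit (SE 0.291, edgeR adjusted p = 0.0391; 0.185 by group alone). Its counts were 19 to 36 in UNC libraries and 29 to 72 in DMSO libraries, and it lies opposite INPP5A, which had 548 to 1443 counts over its whole entry. Together the 14 NKX genes summed to 37.2 ± 0.985 CPM in UNC and 51.4 ± 4.36 CPM in DMSO (SD, n = 3 each). Most of these sums was NKX1-2 (means of 23.1 in UNC and 32.2 in DMSO) and NKX2-5 (4.80 and 8.97). Of the 9 tested NKX genes, 7 had a negative and 2 a positive log2 fold change by group alone.

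Of the PAX genes, PAX2 was called. PAX2, which acts in kidney, inner ear and eye, had 0.308, 0.204 and 0.318 CPM in UNC and 0.773, 0.654 and 0.518 in DMSO, without overlap. It fell by 1.22 on the log2 scale in the paired fit (SE 0.343, edgeR adjusted p = 0.0132; 0.172 by group alone), on 8 to 32 counts per UNC library and 22 to 55 per DMSO library. PAX5, the B cell regulator and the most abundant PAX transcript, had 11.2, 8.72 and 10.9 CPM in UNC and 11.4, 12.4 and 11.3 in DMSO, and its paired log2 fold change was -0.19 (edgeR adjusted p = 0.200). PAX8, of thyroid and kidney, had 2.12, 1.22 and 1.61 CPM in UNC against 2.46, 1.97 and 1.84 in DMSO. PAX8 lies opposite PAX8-AS1, which had more counts than it in every library, so its level is uncertain. The same holds for PAX5, whose span includes the more strongly counted EBLN3P. It also holds for PAX6, opposite an unnamed entry with 2885 to 9668 counts per library.

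No LHX or DLX gene was called between UNC and DMSO by edgeR in either fit, and none had an unadjusted p under 0.05. DESeq2 with the block called none either, with an adjusted p for 21 of the 33 members. LHX6, which marks migrating cortical interneurons, was the most abundant of these and stayed within its spread, at 10.6, 11.3 and 10.4 CPM in UNC and 10.6, 11.9 and 10.3 in DMSO (paired log2 fold change -0.01, SE 0.0838). LHX3, of pituitary and motor neurons, had 1.3, 2.50 and 1.78 CPM in UNC and 1.83, 2.29 and 1.49 in DMSO. LHX8, of oocytes and cholinergic neurons, had 1.66, 1.53 and 1.68 CPM in UNC and 1.03, 1.15 and 1.98 in DMSO. DLX3, a regulator of placenta, skin and teeth, led the DLX genes with 1.56, 1.94 and 2.47 CPM in UNC and 1.68, 2.71 and 3.09 in DMSO. It was lower in 3 of 3 pairs, but its paired log2 fold change of -0.31 did not pass (edgeR adjusted p = 0.225). DLX2, of forebrain interneurons, had 0.877 to 1.00 CPM in UNC and 0.731 to 1.24 in DMSO, and DLX4, expressed in placenta, had 0.281 to 0.500 and 0.495 to 0.737.

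**Figure D3:**
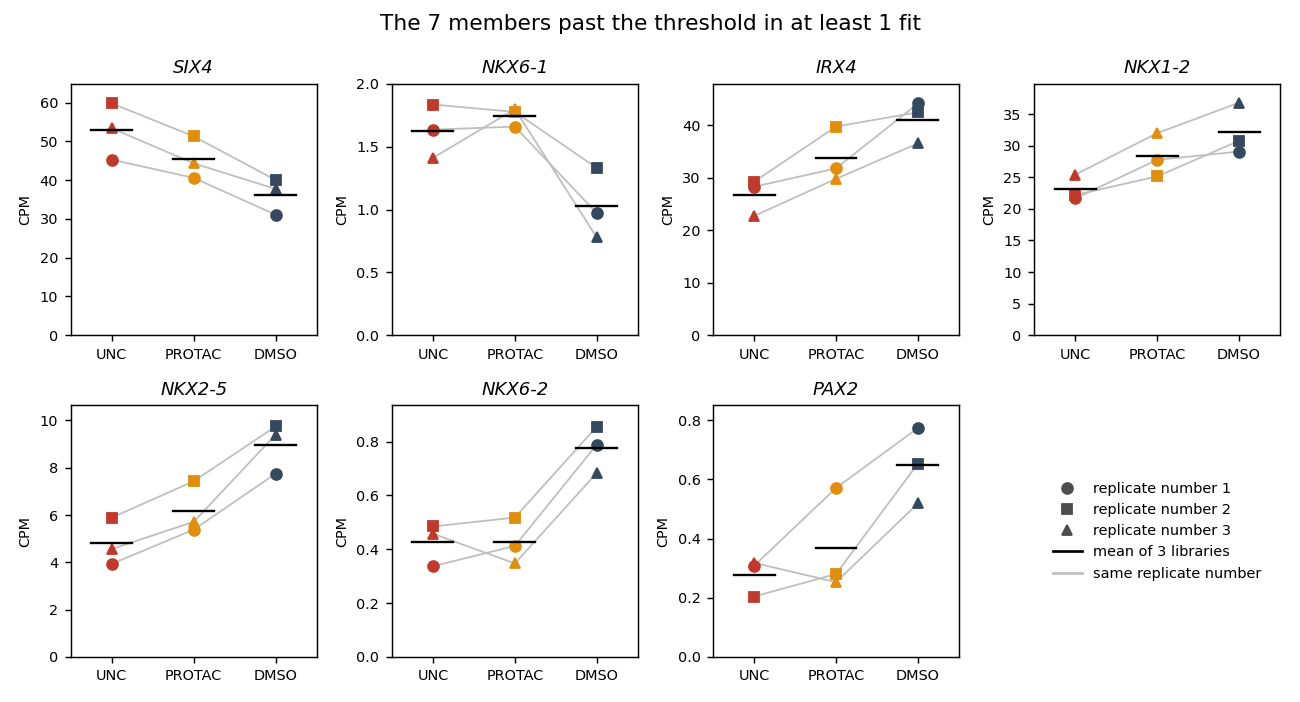
CPM (y axis, from 0) in UNC, PROTAC and DMSO for the 7 members past the threshold in at least 1 fit; symbols give the replicate number, grey lines join libraries of the same number and black bars are means of 3 libraries. In SIX4 the UNC and PROTAC libraries all lie above DMSO, and in NKX2-5 they all lie below it.

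Between PROTAC and DMSO, which asks what degrading EED did, no member was called by group alone with edgeR. No gene at all was (0% of 24182 genes), while 8 members had an unadjusted p under 0.05. DESeq2 called none of these 8, with an adjusted p for 22 of the 33 members. In the paired fit, which called 2.03% of all genes higher and 0.988% lower, SIX4 and NKX6-1 rose and IRX4 and NKX2-5 fell. All 4 were also called in the paired fit of UNC against DMSO, and both comparisons use the same DMSO libraries. In 3 tested members every PROTAC library was above every DMSO library (6.07% of all genes tested), and in 5 every one was below (5.44%). The 5 include PAX6, which passed the expression filter through its DMSO libraries, so that a lower PROTAC value was partly built in. The median log2 fold change of the tested members was -0.19, against -0.01 over all genes. The median was 0.08 in the 17 members at or over 1 CPM on average, of which 11 were positive (0.01 over all genes at that level). In the 16 tested members under 1 CPM it was -0.50 (-0.10 over all genes at that level).

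SIX4 had 40.6, 51.3 and 44.3 CPM in PROTAC 1 to 3, against 31.1, 40.0 and 37.7 in DMSO 1 to 3, each PROTAC library above each DMSO library. Its paired log2 fold change was 0.33 ± 0.0571 (SE, edgeR adjusted p = 0.000532; 0.980 by group alone). NKX6-1 had 1.66, 1.78 and 1.80 CPM in PROTAC and 0.971, 1.33 and 0.778 in DMSO, a paired log2 fold change of 0.74 ± 0.197 (SE, edgeR adjusted p = 0.0305; 0.938 by group alone). The groups did not overlap, and its counts were 57 to 157 in PROTAC libraries and 33 to 112 in DMSO libraries.

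IRX4 had 31.8, 39.7 and 29.8 CPM in PROTAC and 44.1, 42.5 and 36.5 in DMSO, which overlap, although it was lower in 3 of 3 pairs. It fell by 0.29 on the log2 scale in the paired fit (SE 0.0654, edgeR adjusted p = 0.00919; 0.991 by group alone). NKX2-5 had 5.38, 7.43 and 5.71 CPM in PROTAC and 7.75, 9.74 and 9.40 in DMSO, without overlap. It fell by 0.53 on the log2 scale in the paired fit (SE 0.102, edgeR adjusted p = 0.00171; 0.938 by group alone).

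NKX1-2, NKX6-2 and PAX2 did not pass in PROTAC. NKX1-2 had 27.8, 25.1 and 32 CPM in PROTAC and 29.1, 30.8 and 36.8 in DMSO (paired log2 fold change -0.19, edgeR adjusted p = 0.110). NKX6-2 had 0.412, 0.518 and 0.347 CPM in PROTAC, all under the 0.683 to 0.856 of DMSO (paired log2 fold change -0.84, edgeR adjusted p = 0.113). PAX2 had 0.571, 0.280 and 0.253 CPM in PROTAC and 0.773, 0.654 and 0.518 in DMSO, with PROTAC 1 inside the DMSO range (paired log2 fold change -0.81, edgeR adjusted p = 0.196). IRX2 was again level, with 40.2, 51.3 and 45.6 CPM in PROTAC against 37.3, 44.1 and 48.1 in DMSO (paired log2 fold change 0.09, SE 0.0608).

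The 3 tested DLX genes had negative paired log2 fold changes in PROTAC of -0.45 (DLX3), -0.53 (DLX2) and -0.80 (DLX4), none past the threshold (edgeR adjusted p = 0.134 to 0.291). DLX3 had 1.3, 1.83 and 2.40 CPM in PROTAC and 1.68, 2.71 and 3.09 in DMSO, with overlap. Summed DLX transcripts were 3.01 ± 0.610 CPM in PROTAC and 4.33 ± 0.433 CPM in DMSO (SD, n = 3 each). LHX sums were 16.4 ± 1.47 CPM in PROTAC and 16.0 ± 1.01 CPM in DMSO, and PAX sums 15.3 ± 2.32 and 15.3 ± 0.665 CPM in the same groups.

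**Figure D4:**
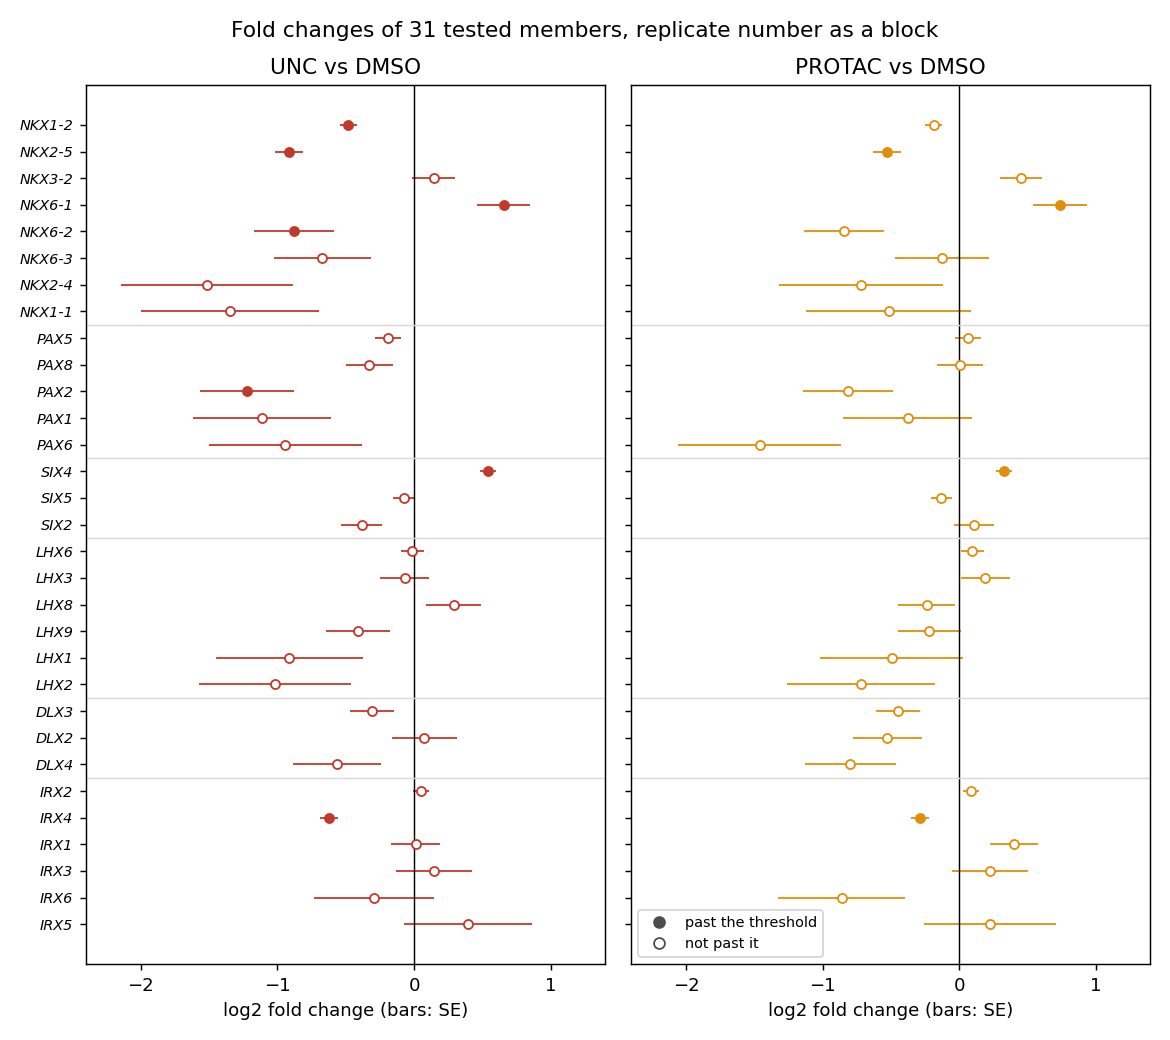
Paired log2 fold changes with SE of 31 of the 33 tested members, UNC against DMSO on the left and PROTAC against DMSO on the right; filled points passed a false discovery rate of 0.05. In UNC 2 filled points lie right of 0 and 5 left of it, and in PROTAC 2 lie right and 2 left.

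The compounds were set against each other directly, at 2.5 µM for PROTAC and 1 µM for UNC, so any difference includes that of concentration. By group alone no member was called with edgeR (0.00827% of all genes were), 4 had an unadjusted p under 0.05, and DESeq2 called none of them. In the paired fit, with 2.16% of all genes higher and 0.74% lower, IRX4, NKX1-2 and NKX2-5 were higher in PROTAC than in UNC and SIX4 was lower. In 2 tested members every PROTAC library was above every UNC library (5.15% of all genes tested), and in 3 every one was below (3.93%). IRX4 had 31.8, 39.7 and 29.8 CPM in PROTAC and 28.3, 29.2 and 22.7 in UNC, without overlap (log2 fold change 0.33, SE 0.0663, edgeR adjusted p = 0.00151). NKX1-2 had 27.8, 25.1 and 32 CPM in PROTAC and 21.7, 22.2 and 25.4 in UNC (log2 fold change 0.29, SE 0.0650, edgeR adjusted p = 0.00475). NKX2-5 had 5.38, 7.43 and 5.71 CPM in PROTAC and 3.94, 5.89 and 4.56 in UNC (log2 fold change 0.38, SE 0.106, edgeR adjusted p = 0.0347). The ranges of NKX1-2 and NKX2-5 overlapped, with all 3 pairs in the same direction.

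SIX4 had 40.6, 51.3 and 44.3 CPM in PROTAC and 45.3, 59.8 and 53.4 in UNC, also overlapping and lower in 3 of 3 pairs (log2 fold change -0.21, SE 0.0562, edgeR adjusted p = 0.0254). In these 4 members the group mean of PROTAC lay between those of UNC and DMSO. In NKX6-1 it did not: 1.75 ± 0.0749 CPM in PROTAC and 1.63 ± 0.213 CPM in UNC (SD, n = 3 each), a difference of 0.08 on the log2 scale with an SE of 0.187. Without overlap but short of the threshold, SIX2 was at 3.72, 3.02 and 3.50 CPM in PROTAC and 2.63, 2.55 and 2.08 in UNC (paired log2 fold change 0.49, edgeR adjusted p = 0.0659).

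The 32 members that averaged under 1 CPM, tested or not, were summed to see whether the barely transcribed genes moved. The sum was 6.99, 5.69 and 7.22 CPM in UNC, 7.63, 6.58 and 6.53 in PROTAC, and 9.42, 8.82 and 8.81 in DMSO. Every library with a compound was below every DMSO library. For the 17 members at or over 1 CPM the sums were 208 ± 15.2 CPM in UNC, 221 ± 15.1 in PROTAC and 221 ± 12.3 in DMSO (SD, n = 3 each), which overlap. Of the 16 tested members under 1 CPM, 12 were negative in UNC and 13 in PROTAC, with medians of -0.77 and -0.50. Among all 7623 tested genes at that level, 58.8% were negative in UNC and 60.1% in PROTAC, with medians of -0.10 in each. Of those 16 members, 2 were called in UNC in the paired fit (NKX6-2 and PAX2), against 3.19% of genes at that level, and 0 in PROTAC, against 0.236%. In PROTAC 5 of the 16 had a paired unadjusted p under 0.05. DESeq2 with the block cannot decide on them. It gave an adjusted p for 15 of the 33 members, and none for the better counted NKX6-1. NKX1-1, NKX2-4 and PAX6 passed the expression filter through their DMSO libraries, having fewer than 3 passing libraries in the other groups, so a lower value with the compounds was partly built into their selection.

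Summed markers of mesoderm and neural cells were also below DMSO in every library of both compounds. Mesoderm markers (TBXT, MIXL1, MESP1, TBX6, EOMES) summed to 8.21 to 8.80 CPM in UNC, 9.88 to 12.5 in PROTAC and 13.0 to 15.2 in DMSO, with TBXT and EOMES lower in UNC in the paired fit (2 of 4 tested). Trophoblast markers (GATA3, GATA2, CDX2, KRT7, TFAP2A, HAND1) summed to 8.44 to 13.4 CPM in UNC, 13.2 to 20.2 in PROTAC and 14 to 21.8 in DMSO, with 4 of 6 lower in UNC in the paired fit. Neural markers summed to 0.918 to 1.51 CPM in UNC, 1.26 to 1.53 in PROTAC and 1.60 to 1.88 in DMSO, with 0 of 4 tested called. Amnion markers were at 4.23 to 7.06, 5.62 to 7.79 and 7.0 to 7.39 CPM and endoderm markers at 8.08 to 10.4, 9.92 to 10.9 and 10.3 to 12.7 CPM in the same groups, with VTCN1 and FOXA2 at or near 0. In UNC 1 of 4 tested amnion markers fell in the paired fit (IGFBP3, log2 fold change -0.90) and 0 of 3 tested endoderm markers were called. The part of such cells in the member values was not tested.

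Neighbouring members were not called together. Of 15 pairs of adjacent members within 1 Mb, 6 had both genes tested, and in 0 of these were both called in the same direction in UNC in the paired fit. IRX4 and IRX2 lie 859 kb apart and IRX2 and IRX1 844 kb apart, with IRX4 alone called. DLX4 and DLX3 lie 15.0 kb apart and neither was called.

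Partner proteins of the families were counted from lists. The EYA and DACH coactivators of SIX-family proteins had 4 of 6 genes tested and none called by edgeR in any comparison (1 in UNC and 2 in PROTAC against DMSO had a paired unadjusted p under 0.05). Their median log2 fold change was 0.11 in UNC and 0.53 in PROTAC, against -0.01 over all genes in each. EYA3, the most counted, had 50.04 to 60.8 CPM in UNC, 56.3 to 60.1 in PROTAC and 47.7 to 57.1 in DMSO. Of 9 cofactors of LIM-homeodomain proteins, 2 rose in UNC in the paired fit, LDB2 (log2 fold change 0.34, edgeR adjusted p = 0.000128) and SSBP2 (0.37, edgeR adjusted p = 0.00200), and none in PROTAC by edgeR, where 3 had a paired unadjusted p under 0.05. Of the LIM-homeobox relatives ISL1, ISL2, LMX1A and LMX1B, 3 were tested and none was called by edgeR in any comparison, with 2 at a paired unadjusted p under 0.05 in UNC and 0 in PROTAC. The Groucho corepressors had TLE4 higher in UNC (0.20, edgeR adjusted p = 0.0231) and in PROTAC (0.25, edgeR adjusted p = 0.0170), and TLE1 lower in UNC (-0.15, edgeR adjusted p = 0.0485), of 6 tested, all in the paired fit. Among 12 relatives of the IRX genes with the same type of homeodomain, PBX3 rose and PBX4 and MEIS3 fell in UNC in the paired fit, and none was called in PROTAC by edgeR, where 2 had a paired unadjusted p under 0.05. The median log2 fold change of these relatives was 0.08 in UNC and 0.06 in PROTAC. PAXIP1, a partner of PAX proteins, rose in UNC in the paired fit (0.17, edgeR adjusted p = 0.0365), and PAXBP1 was not called.

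Regulators that act beside these families were also counted. Of 11 tested genes of the neural plate border and placodes, GATA3, a regulator of placodes, trophectoderm and amnion, fell in UNC by group alone (edgeR adjusted p = 0.0465) and 1 other rose. In the paired fit of UNC against DMSO 1 of them rose and 6 fell, the falling genes including GATA3 with a log2 fold change of -1.52, TFAP2A of -1.44 and GATA2 of -1.08. GATA3, TFAP2A and GATA2 are also among the trophoblast markers above, so the calls of these lists are not separate observations. In the paired fit of PROTAC against DMSO 1 of the 11 rose and 0 fell. The median over the 11 was -0.51 in UNC and -0.09 in PROTAC. Of 7 tested pancreas regulators that act with NKX6-1 in beta cells, 0 rose and 1 fell in UNC in the paired fit, and 0 were called in PROTAC. Of the same list, PDX1, NEUROD1 and NEUROG3 were at or near 0 in all 9 libraries.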

How the data were processed

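RNA of 9 libraries (3 each of UNC, PROTAC and DMSO) was sequenced. Per the labels' protocols, a Watchmaker kit with depletion of ribosomal RNA was used, while the molecule field reads polyA RNA. The submitters' processing notes name Trim Galore 0.6.10, HISAT2 2.2.1 and the build GRCh38. How reads were counted (tool, annotation, strand) is not stated in the sources used here, so reads of overlapping genes on opposite strands cannot be told apart. The authors deposited raw read counts per gene as whole numbers. Of 56312 entries, 5 without an identifier (0.00893% of counts) were left out.

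Tests used edgeR 4.0.16 (R 4.3.3). After TMM scaling and filterByExpr (24182 genes left, about 0.137 CPM in 3 libraries), a robust quasi-likelihood model with group as its only term was fitted to the 9 libraries. Its two-sided p-values were adjusted by Benjamini-Hochberg over these genes, with a threshold of 0.05. SE is the log2 fold change divided by the root of F. The paired fit adds the replicate number as a block. It was listed from the start as another fit, and same-numbered libraries deviated together from their group means: all 9 correlations were 0.106 to 0.472 (median 0.264), and the 18 between different numbers were -0.324 to 0.0748. Deviations cancel within a group, so these sets of correlations are not independent. The pairing was weakest at number 3: UNC 3 and PROTAC 3 had 0.106, near the 0.0748 of UNC 2 and PROTAC 3. The numbers come from the sample titles. Blocking lowered the common biological coefficient of variation to 6.09%, against 13.2% without it (4 and 6 residual degrees of freedom). Where runs were not separate cultures, p-values would measure technical spread. Replicates differed beyond counting noise (chi-square per degree of freedom 10.5 to 37.3) and were all kept. A count of 3, taken as the floor, was 0.0289 CPM in UNC 1 and 0.0947 CPM in PROTAC 3.

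Levels per kb used exon lengths of GENCODE 29 by gene identifier. Promoter windows were read from RefSeq, choosing the start nearest the 5′ end in the count table. Members described singly were those called in any fit and the 3 most counted of each family; NKX1-1, NKX2-1, NKX2-4, NKX2-6 and PAX6 were named after their values were seen. Some members and listed genes are counted but not reported here by name. The members, the 17 lists and the tests were chosen with earlier results of these data known. The fitting step was tested on simulated data. Alternatives were RLE and library-size scaling, other filters, DESeq2 1.42.0, the 6 libraries compared, and leaving out each library or replicate number.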

Additional observations from a re-analysis of the deposited data

Results flagged for a closer look

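Responses of 4 members differed between the compounds in the direct test of PROTAC against UNC in the paired edgeR fit, at 2.5 µM and 1 µM. The log2 difference was 0.33 for IRX4, 0.29 for NKX1-2 and 0.38 for NKX2-5, each with higher CPM in PROTAC than in UNC, and -0.21 for SIX4, with lower CPM in PROTAC. In each of the 4, all 3 pairs of the same replicate number moved the same way. None of them passed by group alone. How much of the difference comes from the compound and how much from its concentration cannot be told apart.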

How the results depend on the processing

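Counts of members called depended on whether the replicate number was a block. For UNC against DMSO, 0 rose and 2 fell by group alone, and 2 rose and 5 fell with the replicate block, also with RLE or library-size scaling. With the block and DESeq2, 2 rose and 3 fell, and NKX6-2 and PAX2 had no adjusted p. By group alone, 1 rose without an expression filter and 1 with DESeq2 (SIX4 in both), 3 fell in each of these settings (NKX1-2 beside IRX4 and NKX2-5), and 0 fell in a fit of the 6 libraries compared. For PROTAC against DMSO, 0 and 0 by group alone became 2 rising and 2 falling with the block, also with RLE scaling, and 1 and 2 with the block and either library-size scaling or DESeq2. In that DESeq2 fit NKX6-1 had no adjusted p. For PROTAC against UNC, 0 and 0 became 3 higher and 1 lower with the block under all of these scalings and DESeq2. Leaving out 1 library or 1 replicate number gave 0 to 1 rising and 0 to 2 falling for UNC by group alone, with 0 falling without UNC 3, PROTAC 3, any DMSO library, number 2 or number 3, and 0 for both comparisons of PROTAC. With the block, the same omissions gave 1 to 2 rising and 3 to 6 falling for UNC, 0 to 2 and 0 to 2 for PROTAC, and 0 to 4 higher and 0 to 1 lower for PROTAC against UNC. Apart from the members without an adjusted p in DESeq2, the cause of these changes was not tested.

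In all 16 settings with the block, IRX4, NKX1-2, NKX2-5 and SIX4 were called in UNC against DMSO, with log2 fold changes of -0.69 to -0.56, -0.52 to -0.45, -1.0 to -0.84 and 0.51 to 0.58. PAX2 was called in 10 of them, NKX6-1 in 8 and NKX6-2 in 5. DESeq2 gave no adjusted p for PAX2 and NKX6-2, so that setting is no failed call for them. NKX6-1 was lost without any 1 of the UNC libraries, DMSO 1, DMSO 3 or any replicate number. In PROTAC against DMSO, SIX4 and NKX2-5 were called in 15 of 16, IRX4 in 11 and NKX6-1 in 6, with no adjusted p for NKX6-1 by DESeq2. In PROTAC against UNC, IRX4 was called in 13 of 16, NKX1-2 in 12, SIX4 in 9 and NKX2-5 in 7. No fold change called in the paired fit turned its sign in any alternative run. DESeq2 gave an adjusted p for 15 to 25 of the 33 members. Of the members not tested, 12 had fewer than 10 counts in every library. None of these was called by group alone without an expression filter. What size of change could be detected at such counts was not measured.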
